A study of Mus musculus with 2 samples.

Results

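Transcripts of 10 growth factors that act on wound repair and blood vessels were followed in leukocytes of the mouse aortic adventitia, the outer layer of the vessel wall. They were taken by gene symbol, 1 row each, from the 55386 features of the deposited count matrices, namely *Igf1*, *Pdgfa*, *Pdgfb*, *Pdgfc*, *Vegfa*, *Vegfb*, *Hbegf*, *Areg*, *Ereg* and *Osm*. The mice were *Rank*-Cre *Rosa26*-eYFP animals of 16 weeks, in which Cre driven by the *Rank* gene turns on a yellow fluorescent reporter for good, in the cell and its progeny. Live CD45+ cells were sorted either at steady state (3 mice) or after angiotensin II (AngII, 1.8 µg per kg and minute for 10 days from an osmotic pump, 2 mice). The animals of a condition were pooled into 1 droplet library, and the labels name whole aortas in the sort and adventitia as the tissue. A saline pump control was not analysed here, so AngII, the pump, the pool of animals and the preparation cannot be told apart.

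These ligands reach their target cells over short distances. IGF-1 binds its receptor on stromal and smooth muscle cells and is held back or carried by IGF-binding proteins, and PDGFs drive mesenchymal cells through the PDGF receptors. VEGF-A, whose gene is switched on by low oxygen, acts on endothelial cells, while the EGF-type ligands HB-EGF, amphiregulin and epiregulin are made as membrane proteins and shed by metalloproteases. Oncostatin M is a cytokine of the IL-6 family that signals through gp130 with the OSM receptor, and it is made largely by myeloid and T cells.

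Counts are unique molecular identifiers (UMIs), each standing for 1 captured transcript, and the level of a gene in a class of cells is its number of UMIs per 1000000 UMIs summed over that class (CPM). After the cell filter, 306 cells with 3647973 UMIs remained at steady state and 4198 cells with 18008885 UMIs on AngII, and no barcode sequence was shared by the libraries. The median depth was 9105 UMIs per cell at steady state and 1092 on AngII, so shares of cells with a UMI are also given after each cell was thinned to 1000 UMIs. *Ptprc*, which encodes CD45, had a UMI in 93.8% of the steady-state cells and 63.6% of the AngII cells, at 912 and 830.0 CPM. Cells were put into classes by marker genes, none of which is among the 10 growth factors, and cells whose 2 best classes scored alike (12 and 507) were left out of the classes as possible doublets. Of 5 marker lists for cells outside the sort, the summed level was 3.02 to 117 CPM at steady state and 3.61 to 13.5 CPM on AngII. Most of the highest of these values, for smooth muscle genes, came from 1 steady-state barcode with 377 of the 425 UMIs. *Cldn5* of endothelial cells and *Gp9*, *Gp1bb* and *Tubb1* of platelets were at 0 in both libraries, and *Col1a1* and *Lum* of fibroblasts and *Emcn* and *Tie1* of endothelial cells at 0 at steady state. Since neither condition had a replicate library, no test was made, and every interval (95%) covers counting error only.

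The promoters of *Vegfa* and *Areg* are shown because the results turn on the contrast of the former between the libraries and of the latter between cell classes. Both windows are the 250 bases before the RefSeq start site on GRCm38.p6, outside every GENCODE M21 exon of the gene. The *Vegfa* window lies at chr17:46032378-46032627 on the minus strand and the *Areg* window at chr5:91139349-91139598 on the plus strand. Capitals mark the GC box GGGCGG, the cyclic AMP response element TGACGTCA and the TATA box TATAAA.
Vegfa: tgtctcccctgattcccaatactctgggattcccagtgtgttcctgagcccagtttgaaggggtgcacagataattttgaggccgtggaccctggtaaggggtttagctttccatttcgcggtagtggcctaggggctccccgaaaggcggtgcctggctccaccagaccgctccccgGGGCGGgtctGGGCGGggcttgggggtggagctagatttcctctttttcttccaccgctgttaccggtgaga
Areg: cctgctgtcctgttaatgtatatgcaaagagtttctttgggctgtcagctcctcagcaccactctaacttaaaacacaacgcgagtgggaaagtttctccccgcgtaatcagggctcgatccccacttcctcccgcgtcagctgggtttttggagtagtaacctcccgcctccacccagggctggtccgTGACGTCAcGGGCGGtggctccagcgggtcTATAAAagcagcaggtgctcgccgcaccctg
The *Vegfa* window held 2 GC boxes, 72 and 62 bases before the start, and a GC box was found in 32.7% of all 32851 promoters when both strands were searched over the same 250 bases. The *Areg* window held the cyclic AMP element at 61, a GC box at 52 and the TATA box at 31 bases before the start, with no overlap between them. That element was present in 1.55% of the promoters and the TATA box in 12.4%. The AP-1 site TGANTCA (6.75% of promoters), the STAT site TTCNNNGAA (7.02%) and the hypoxia core ACGTG (16.6%) were in neither window. A second *Vegfa* start site in the RefSeq table, not shown, did hold the hypoxia core. Of the 10 genes, 6 had a promoter in the table.

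*Areg* (chromosome 5, 91139599 to 91148432) lies downstream of *Ereg* (chromosome 5, 91074622 to 91093646) on the same strand. *Vegfa* spans 46016993 to 46032369 on chromosome 17, *Igf1* 87858265 to 87937042 on chromosome 10 and *Osm* 4236420 to 4241026 on chromosome 11. *Igf1*, *Pdgfa*, *Pdgfb*, *Pdgfc* and *Ereg* each overlap another annotated gene, on the same strand only for the microRNA gene *Mir7213* in *Pdgfb*.

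The map of levels by class shows that the genes were highest in different classes. At steady state, *Igf1* had the most UMIs of them, 714, of which 85.0% were in resident macrophages, and *Vegfa* was nearly absent with 3 UMIs in 306 cells. On AngII, *Osm* (1677 UMIs) and *Vegfa* (791 UMIs) were highest in monocytes, neutrophils and reparative macrophages among the classes of at least 10 cells, while 65.0% of *Igf1* (1117 UMIs) was in resident macrophages. Over all cells the level of *Vegfa* was 43.9 CPM on AngII (interval 40.9 to 47.1) against 0.822 CPM (0.170 to 2.40), a ratio of 53.4 (18.2 to 259.5). With cells thinned to 1000 UMIs no *Vegfa* UMI was left at steady state and the level was at least 5.74-fold higher, and the ratio of the mean CPM per cell was 35.2. *Osm* was at 93.1 against 20.8 CPM (ratio 4.47, interval 3.55 to 5.70), and *Igf1* at 62.0 against 196 CPM (ratio 0.317, interval 0.288 to 0.349). Of the 9 genes with at least 20 UMIs, these were the 2 at least 2-fold higher and the 1 at least 2-fold lower, where 6.56% and 9.82% of the 13559 genes with that many UMIs were past 2-fold. The median log2 ratio was 0.19 for the 9 genes and -0.08 for all genes, and genes past the minimum are not all the growth factors, since *Ereg* did not reach it. The makeup of the libraries differed beside these values, as resident macrophages were 36.6% of the cells at steady state and 17.3% on AngII, and neutrophils 1.63% and 10.6%.

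**Figure D1:**
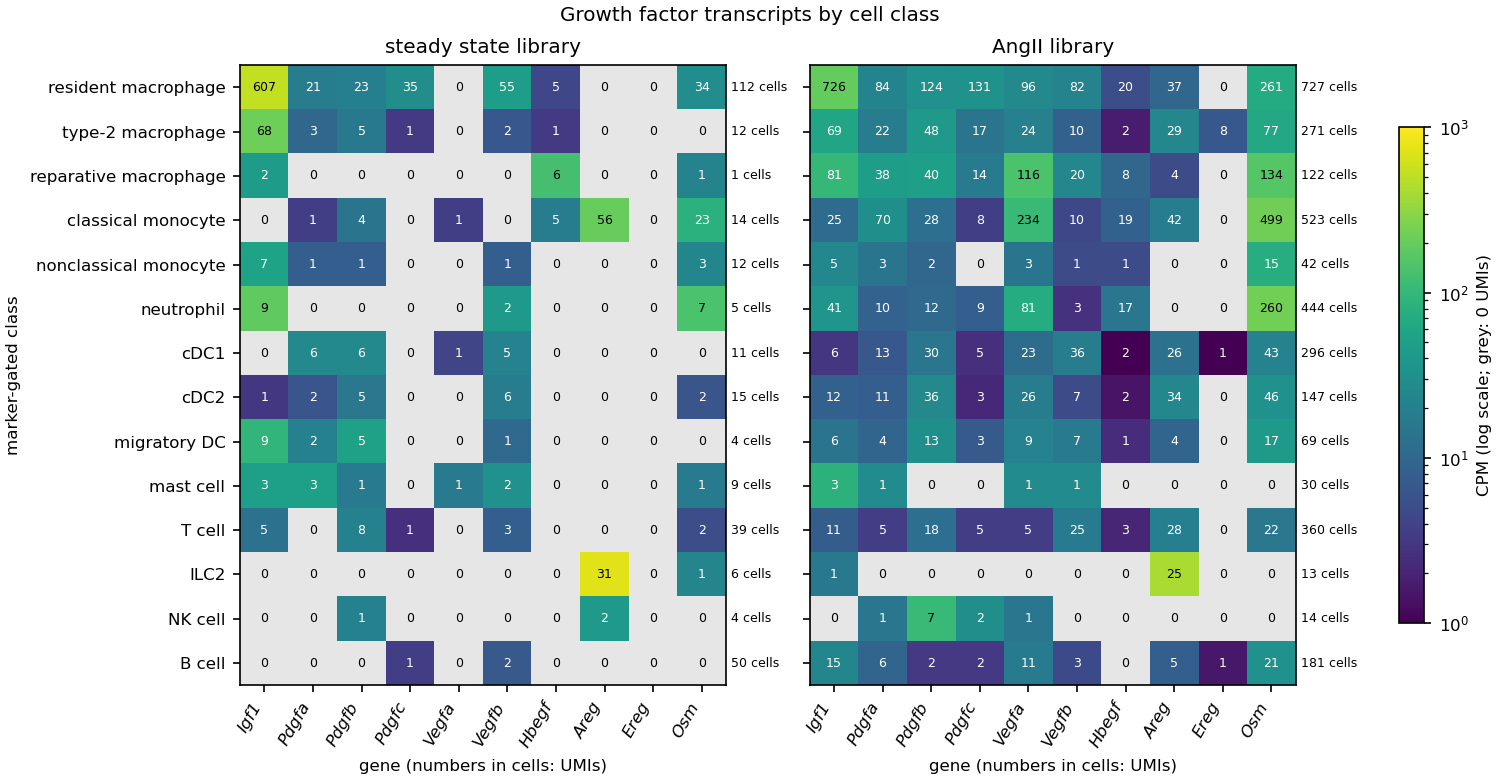
Level of each growth factor (columns) in marker-gated classes (rows) of the steady-state (left) and AngII (right) library, as CPM on a log colour scale, with the number of UMIs printed in each box, grey boxes for 0 UMIs and the number of cells at the right. *Igf1* is brightest in resident macrophages of both libraries, and the *Vegfa* column is grey at steady state but for 3 boxes of 1 UMI and bright on AngII in reparative macrophages, classical monocytes and neutrophils.

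Within resident macrophages (markers such as *Lyve1*, *Folr2* and *Cd163*; 112 and 727 cells), 9 of the 10 genes had at least 20 UMIs over both libraries. *Vegfa*, *Areg* and *Osm* were at least 2-fold higher on AngII and *Igf1* and *Vegfb* at least 2-fold lower. Among all 10148 genes of this class with as many UMIs, 8.30% were that much higher and 8.37% that much lower, and the median log2 ratio was 0.30 for the 9 genes and -0.01 for all. In type-2 macrophages (*Retnla*, *Ear2*; 12 and 271 cells) *Pdgfb*, *Vegfa*, *Areg* and *Osm* were higher and *Igf1* lower among 6 genes with enough UMIs, beside 11.0% and 7.74% of all genes (median log2 ratio 1.20 against 0.02). In classical monocytes (*Ly6c2*, *Plac8*; 14 and 523 cells) *Pdgfa*, *Vegfa* and *Osm* were higher and *Hbegf* and *Areg* lower among 7 genes, beside 12.9% and 8.27% (median 0.04 against 0.03). Immunoglobulin transcripts (*Ighg2c*, *Jchain*, *Igkc*) led the genes of the AngII monocyte gate together with its own markers, and their part in these values was not tested. No growth factor had enough UMIs in nonclassical monocytes, where 9.08% of all genes were higher and 6.97% lower. At most 5 were measurable in any other class. *Vegfa* was higher in type-1 conventional dendritic cells (14.9% of all genes higher), and *Vegfa*, *Areg* and *Osm* were in type-2 conventional dendritic cells (13.6%). *Vegfb*, *Areg* and *Osm* were higher in T cells (19.8%) and *Osm* in B cells (13.9%). None of the growth factors with enough UMIs was lower in these classes, where 6.80%, 7.85%, 6.62% and 6.62% of all genes were. Several of these values rest on few UMIs or 1 cell. *Vegfa* in type-1 conventional dendritic cells had a ratio of 2.70 (0.438 to 111) from 23 UMIs against 1, and in T cells the ratios of *Vegfb* (2.22, 0.678 to 11.5) and *Osm* (2.93, 0.721 to 25.7) had intervals that held 1. In type-2 conventional dendritic cells 18 of 26 *Vegfa* UMIs and 19 of 34 *Areg* UMIs were in 1 cell each, as were 20 of 28 *Areg* UMIs in T cells. In T cells the median log2 ratio of all genes was 0.22, and the ratios there stand beside that shift.

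**Figure D2:**
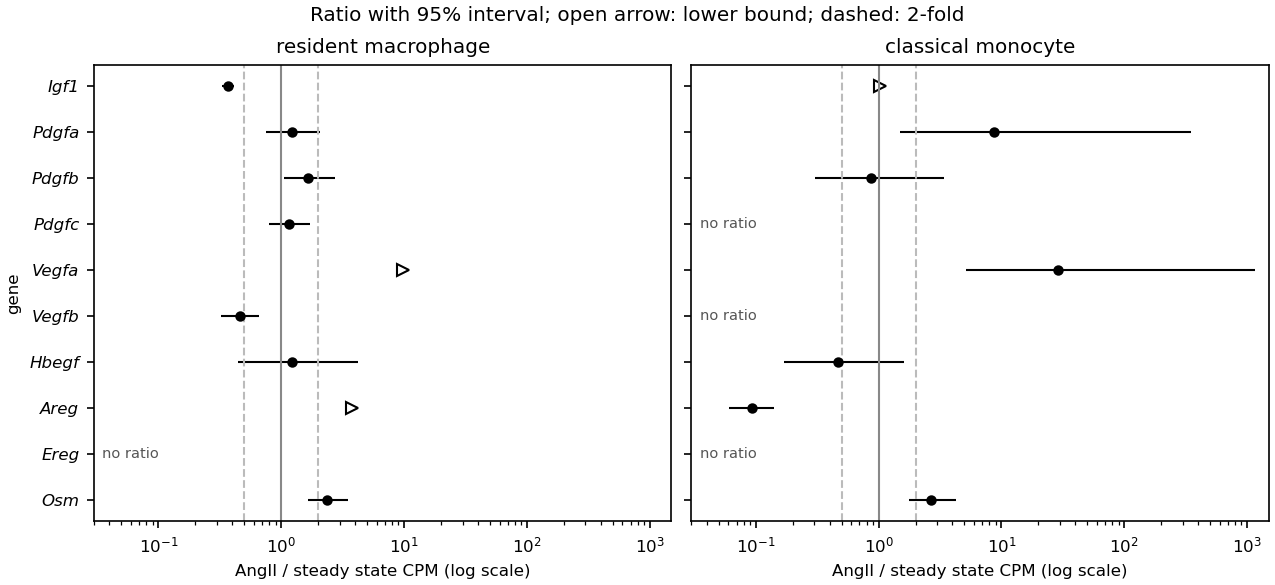
Ratio of the AngII to the steady-state level for each gene in resident macrophages (left) and classical monocytes (right), on a log axis, with points for ratios, bars for exact 95% counting intervals, open arrows for lower bounds where the steady-state count was 0, a solid line at 1 and dashed lines at 2-fold. In resident macrophages *Igf1* and *Vegfb* lie left of the lower dashed line, *Pdgfa*, *Pdgfb*, *Pdgfc* and *Hbegf* lie between the dashed lines, and *Vegfa*, *Areg* and *Osm* lie to the right.

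*Igf1* was found mainly in resident macrophages. At steady state its level there was 524 CPM (483 to 568), and 97 of 112 cells (86.6%, Clopper-Pearson interval 78.9 to 92.3) held a UMI. On AngII it was 193 CPM (179 to 208), with a UMI in 208 of 727 cells (28.6%, 25.3 to 32.0). The ratio was 0.368 (0.330 to 0.411), and after thinning the shares were 37.3% at steady state and 15.9% on AngII, lower on AngII at equal depth too. In type-2 macrophages the level went the same way, from 219.7 to 58.3 CPM (ratio 0.265, 0.187 to 0.376). On AngII the reparative macrophages (*Arg1*, *Spp1*; 122 cells) followed resident macrophages in order at 98.7 CPM (78.4 to 123), with 15 of 81 UMIs in 1 cell, and their interval did not meet that of type-2 macrophages (45.3 to 73.8). Mast cells had 83.7 CPM from 3 UMIs. Neutrophils stood at 36.2 CPM (26.0 to 49.1), B cells at 23.7, classical monocytes at 11.1 and T cells at 7.64 CPM. The intervals of B cells (13.3 to 39.1) and neutrophils overlapped, so neutrophil *Igf1* was not separated from the level in a class that should lack it.

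Some genes of the IGF system were lower with *Igf1* and others higher. *Igfbp4*, which encodes a binding protein that restrains IGF-1, was at 524 CPM in resident macrophages at steady state and at 159 CPM on AngII (ratio 0.304, 0.271 to 0.340). *Igf1r*, the receptor, was at 53.5 against 25.0 CPM in these cells (ratio 0.467, 0.335 to 0.655), while on AngII it was highest in neutrophils at 162 CPM. *Igfbp6*, a binding protein with preference for IGF-2, rested on 2 UMIs at steady state and 805 on AngII, with the highest level in neutrophils at 218 CPM. *Igf2r*, which takes up IGF-2 for degradation, was at 14.1 against 0.864 CPM in resident macrophages, the latter from 1 UMI. Of the 12 genes in this list, 6 had 20 UMIs in resident macrophages, of which 2 were at least 2-fold higher and 2 lower on AngII. Among all genes of this class with as many UMIs, 8.30% were higher and 8.37% lower. *Igf2* had 0 UMIs in either library, which allows up to 0.822 CPM at steady state and 0.167 CPM on AngII.

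**Figure D3:**
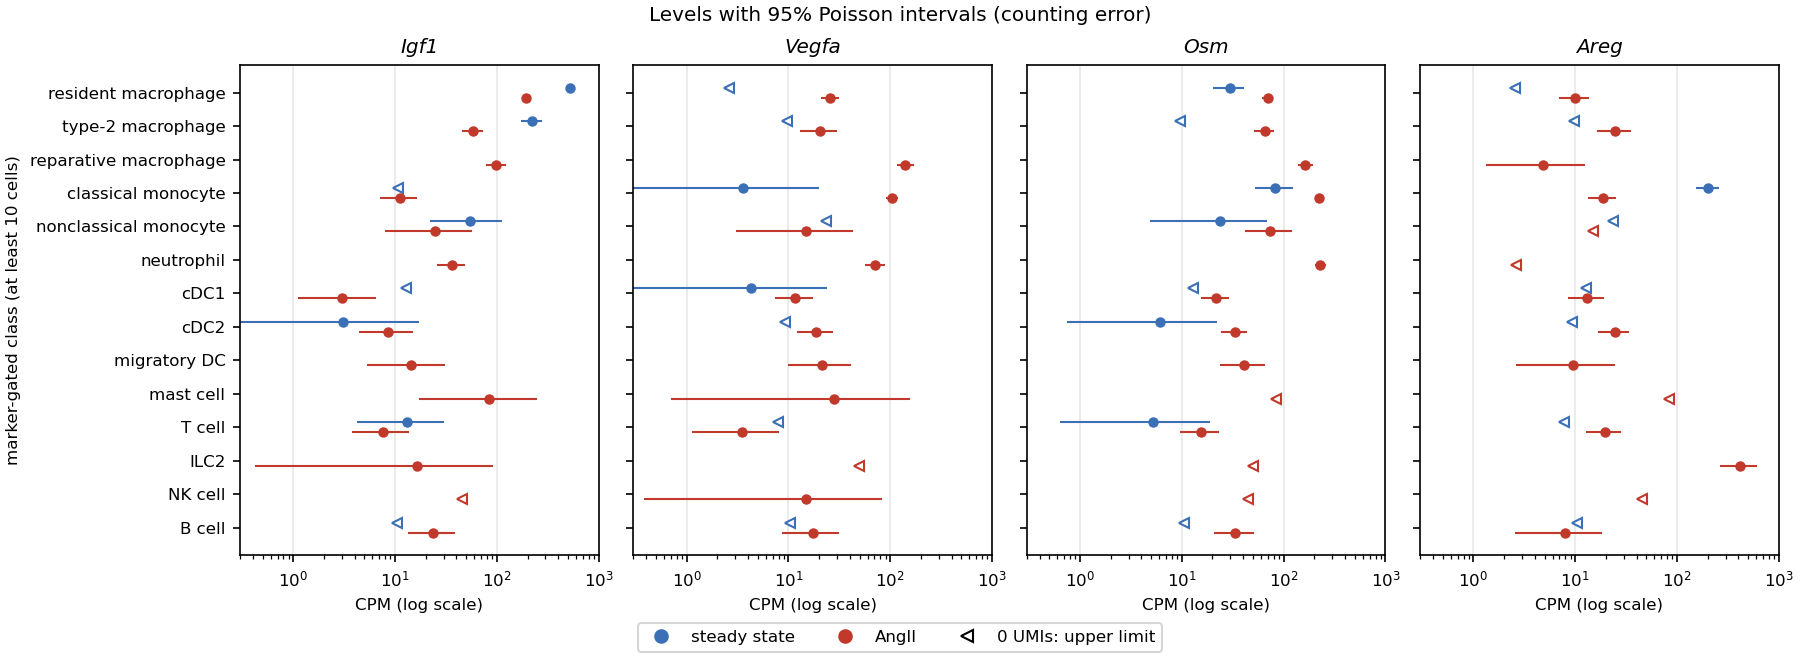
Levels of *Igf1*, *Vegfa*, *Osm* and *Areg* in each class with at least 10 cells, as CPM on a log axis, for the steady-state (blue) and AngII (red) library, with bars for exact 95% Poisson intervals and open arrows for the upper limit that 0 UMIs allow. *Igf1* of resident and type-2 macrophages is lower on AngII with separate intervals, and *Areg* is highest in type-2 innate lymphoid cells (ILC2) of the AngII library at 413 CPM.

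*Vegfa* was found almost only on AngII. The 3 steady-state UMIs were in 1 classical monocyte, 1 type-1 conventional dendritic cell and 1 mast cell. On AngII it was highest in reparative macrophages at 141 CPM (117 to 169.5), followed by classical monocytes at 104 CPM (91.1 to 118) and neutrophils at 71.5 CPM (56.7 to 88.8). The intervals of the first 2 met at their ends and that of neutrophils was below both. Without its richest cell, with 26 of 116 UMIs, the reparative class was at 113 CPM. A UMI was found in 24 of 122 reparative macrophages (19.7%), 47 of 523 monocytes (8.99%) and 45 of 444 neutrophils (10.1%), and after thinning the shares were 9.09%, 10.2% and 7.09%. In classical monocytes at steady state the single UMI gave 3.59 CPM, so the ratio of 29.0 is known only to lie between 5.15 and 1149.

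In resident macrophages *Vegfa* had 96 UMIs in 37 of 727 cells on AngII, or 25.5 CPM (20.7 to 31.2). At steady state it had 0 among 1157834 UMIs in 112 cells, which allows up to 2.59 CPM and up to 2.68% of cells with a UMI, without limiting the share of cells that express the gene, so the level was at least 9.86-fold higher on AngII. After thinning, 14 of 446 AngII cells and 0 of 110 steady-state cells held a UMI, and the bound was at least 1.15-fold. T cells of the AngII library had 3.47 CPM (1.13 to 8.11), below the resident macrophages, whereas B cells had 17.4 CPM (8.67 to 31.1), an interval that overlaps theirs. Macrophage markers stood beside this, with their summed level in B cells at 25.2% of that in resident macrophages (58.8% of it in 5 cells) and in T cells at 4.53%, and the part of free RNA or doublets in these values was not tested.

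*Vegfb*, a relative of *Vegfa* that binds VEGF receptor 1, had another pattern. At steady state 67.9% of its UMIs were in resident macrophages, at 47.5 CPM (35.8 to 61.8). On AngII the level in these cells was 21.8 CPM (17.4 to 27.1), a ratio of 0.459 (0.322 to 0.659). The share of these cells with a UMI was 35.7% and 8.53%, and 2.73% and 1.79% after thinning, where the ratio of 0.658 (0.158 to 3.85) was not separated from 1. Over cells with at least 1000 genes the ratio was 0.519, just inside 2-fold. Classical monocytes and neutrophils of the AngII library, in which *Vegfa* was abundant, had 4.45 and 2.65 CPM of *Vegfb*. Reparative macrophages, in which *Vegfa* was abundant too, had 24.4 CPM (14.9 to 37.6) of *Vegfb*, not separated from resident macrophages. T cells had 17.4 CPM and type-1 conventional dendritic cells 18.1 CPM on AngII, with intervals that overlapped that of resident macrophages.

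Of the VEGF co-receptors, *Nrp1* (neuropilin 1) was at 417 CPM in resident macrophages at steady state and 259 CPM on AngII (ratio 0.622, 0.557 to 0.695). *Nrp2* was at 177 and 133 CPM there, and on AngII it was highest in migratory dendritic cells at 300.5 CPM. *Flt1*, the VEGF receptor 1 gene, was highest in nonclassical monocytes in both libraries, with 12 and 5 UMIs. *Pgf*, the placental growth factor gene, had 27 of its 52 AngII UMIs in type-2 conventional dendritic cells at 19.3 CPM. No gene of the 8 in this list was past 2-fold in resident macrophages, where 2 had enough UMIs. Of all genes there, 8.30% were that much higher and 8.37% lower.

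The PDGF genes stayed within 2-fold between the libraries in resident macrophages. *Pdgfc* was at 30.2 CPM (21.1 to 42.0) at steady state and 34.9 CPM (29.1 to 41.4) on AngII, and *Pdgfb* at 19.9 and 33.0 CPM (ratio 1.66, 1.06 to 2.72). *Pdgfa* was at 18.1 and 22.4 CPM (ratio 1.23, 0.757 to 2.09), so a change of up to 2.09-fold cannot be told from none at this depth. *Pdgfc* was found mostly in resident macrophages, which held 89.7% of its UMIs at steady state and 59.8% on AngII. Reparative macrophages were at 17.1 CPM (9.33 to 28.6) and type-2 macrophages at 14.4 CPM (8.36 to 23.0) on AngII. Classical monocytes had 3.56 CPM and T cells 3.47 CPM, and natural killer cells 30.0 CPM from 2 UMIs. *Pdgfa* was highest on AngII in reparative macrophages at 46.3 CPM (32.8 to 63.5), followed by plasmacytoid dendritic cells at 31.4 CPM from 2 UMIs and classical monocytes at 31.1 CPM (24.3 to 39.3), which were not separated. *Pdgfb* was at 48.7 CPM in reparative and 40.5 CPM in type-2 macrophages, with overlapping intervals, and natural killer cells reached 105 CPM from 7 UMIs in 5 of 14 cells. *Pdgfb* was also present in AngII T cells at 12.5 CPM, as much as in classical monocytes at 12.4 CPM. The PDGF receptor genes were nearly absent from these leukocytes, with 0 UMIs of *Pdgfra* in either library and 3 and 6 of *Pdgfrb*. *Furin*, a protease that matures PDGF chains among other proteins, was at 65.6 and 111 CPM in resident macrophages (ratio 1.69, 1.32 to 2.18) and reached 1453 CPM in the ILC2 of the AngII library.

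Of the EGF-type ligands, *Areg* (amphiregulin) stood out in ILC2 (*Gata3*, *Il1rl1*). It was at 724 CPM (492 to 1028) in 6 cells at steady state and 413 CPM (267 to 609) in 13 cells on AngII, and on neither side did another class reach these intervals. Steady-state classical monocytes came next at 201 CPM (152 to 261). Few cells made these values. At steady state 31 UMIs came from 2 ILC2 and 56 UMIs from 2 monocytes, and on AngII 18 of the 25 UMIs came from 1 ILC2, without which the class was at 135 CPM. In classical monocytes the AngII level was 18.7 CPM, 42 UMIs in 10 of 523 cells, a ratio of 0.0928 (0.0607 to 0.141) that rests on those 2 steady-state cells. In resident macrophages on AngII it was 9.85 CPM, with 21 of 37 UMIs in 1 cell, against 0 UMIs at steady state. Its interval (6.93 to 13.6) overlapped those of T cells (12.9 to 28.1, from 19.5 CPM) and B cells (2.56 to 18.4, from 7.90 CPM), and without the richest cell the bound of at least 3.80-fold became at least 1.65-fold. No *Areg* UMI was found in 444 AngII neutrophils.

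*Hbegf*, the heparin-binding EGF-like growth factor gene, was at 5.21 CPM over all cells at steady state and 4.61 CPM on AngII. Of the 19 steady-state UMIs, 6 were in the 1 reparative macrophage of that library. On AngII it was highest in neutrophils at 15.0 CPM, 17 UMIs in 9 cells, against 5.32 CPM in resident macrophages and 2.08 CPM in T cells. In classical monocytes it was at 18.0 CPM at steady state (5 UMIs, 4 in 1 cell) and 8.45 CPM on AngII, a ratio of 0.470 (0.170 to 1.61) that turned to 1.53 without the richest cell of each library. *Ereg* (epiregulin) had 0 UMIs at steady state, which allows up to 0.822 CPM, and 11 UMIs in 4 cells on AngII, 8 of them in a single type-2 macrophage. No difference in *Ereg* was detectable at this depth. *Adam17*, the protease that sheds these ligands, was at 64.8 CPM in resident macrophages at steady state and 132 CPM on AngII (ratio 2.04, 1.60 to 2.63), while *Adam10*, a related sheddase, had a ratio of 0.908 (0.746 to 1.11). *Errfi1*, which encodes a feedback inhibitor of the EGF receptor, was at 45.8 CPM in resident macrophages at steady state and 24.5 CPM on AngII (ratio 0.535, 0.377 to 0.765) and at 77.8 CPM in classical monocytes (ratio 2.71, 1.34 to 6.37). Of the 14 genes in this list, 7 had enough UMIs in resident macrophages, with 2 at least 2-fold higher, *Adam17* among them, and 1 lower. The shares over all genes of that class were 8.30% and 8.37%. *Rhbdf2*, a partner of *Adam17*, was at 25.0 CPM on AngII (ratio 1.70, 1.01 to 3.05).

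*Osm* was the growth factor with the most UMIs on AngII. Its level was 229 CPM (202 to 259) in neutrophils and 222 CPM (203 to 242) in classical monocytes, which did not differ beyond counting error, followed by reparative macrophages at 163 CPM (137 to 193). A UMI was found in 23.4%, 23.3% and 21.3% of these cells and in 13.4%, 15.9% and 14.3% after thinning. Resident macrophages (69.5 CPM, 61.3 to 78.4), type-2 macrophages (65.0 CPM, 51.3 to 81.3) and nonclassical monocytes (73.9 CPM, 41.4 to 122) formed a lower group with overlapping intervals. T cells at 15.3 CPM and B cells at 33.2 CPM were below both macrophage classes beyond their intervals. At steady state *Osm* had 76 UMIs in all, with 29.4 CPM (20.3 to 41.0) in resident macrophages and 82.6 CPM (52.4 to 124) in classical monocytes. Single cells weighed on both values, with 16 of 34 UMIs in 1 resident macrophage and 20 of 23 in 1 monocyte. The ratio in resident macrophages was 2.37 (1.65 to 3.49) and became 4.16 (2.58 to 7.13) without the richest cell of each library, and that in classical monocytes was 2.69 (1.77 to 4.28) and became 17.9 (6.08 to 87.1).

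*Socs3*, a feedback inhibitor of cytokine signalling that gp130 receptors induce, was at 106 CPM over all cells at steady state and 253 CPM on AngII (ratio 2.39, 2.15 to 2.66), with the highest level in AngII neutrophils at 541 CPM. In classical monocytes its ratio was 5.39 (3.43 to 8.99) and in resident macrophages 1.34 (1.15 to 1.58). *Lifr*, the LIF receptor gene, was at 339 and 195 CPM in resident macrophages (ratio 0.575, 0.508 to 0.651), and *Il6st*, which encodes gp130, at 69.1 and 37.0 CPM (ratio 0.535, 0.404 to 0.714). *Il6ra*, the IL-6 receptor gene, was at 142 CPM on AngII (ratio 0.750, 0.639 to 0.882). *Osmr*, the OSM receptor gene, had 0 UMIs in either library, which allows up to 0.822 CPM at steady state and 0.167 CPM on AngII. Which ligand stood behind the *Socs3* values was not tested. None of the 4 genes of this list with enough UMIs in resident macrophages was past 2-fold, beside 8.30% of all genes higher and 8.37% lower.

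Genes induced within minutes by tissue digestion also moved between the libraries. Their summed level in resident macrophages, over 10 immediate-early and heat shock genes, was 17449 CPM at steady state and 9194 CPM on AngII. Of the 10, 4 were at least 2-fold lower in that class and 0 higher, beside 8.37% and 8.30% of all genes with at least 20 UMIs. *Egr1* was at 2633 and 1284 CPM there, *Fos* at 4286 and 2463, *Dusp1* at 2434 and 1463 and *Junb* at 1885 and 1529 CPM. In B cells the summed level went the other way, from 2177 to 5159 CPM. Some of the growth factors, *Areg*, *Hbegf* and *Osm* among them, are known to be induced as rapidly, and the part of dissociation in their values was not tested.

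The reporter marks cells with a history of *Rank* expression. A resident macrophage was called *Yfp*+ from 1 UMI of the reporter, found in 184 of the 727 AngII cells and in 85 of the 112 steady-state cells. *Yfp*- thus means no reporter UMI and can include labelled cells of low depth. On AngII, *Igf1* was at 237 CPM in 184 *Yfp*+ cells and 141 CPM in 543 *Yfp*- cells (ratio 1.68, 1.44 to 1.97). *Pdgfc* was at 45.8 against 21.7 CPM (ratio 2.11, 1.43 to 3.17). *Vegfa* and *Osm* were lower in *Yfp*+ cells, at 19.0 against 33.4 CPM (ratio 0.568, 0.368 to 0.869) and 47.7 against 95.6 CPM (ratio 0.499, 0.384 to 0.645). The *Yfp*+ cells were far deeper (median 8306 UMIs against 1060.0), and thinning evens the depth of the growth factors but not of the call itself. After thinning, the *Igf1* ratio had an interval of 1.28 to 3.13, and the ratio of *Pdgfc* 2.43 (0.836 to 7.53), that of *Vegfa* 0.681 (0.156 to 2.36) and that of *Osm* 0.852 (0.373 to 1.83), so that only the *Igf1* interval stayed on 1 side of 1 among these 4. At steady state *Igf1* went the other way, at 501 CPM in 85 *Yfp*+ and 676 CPM in 27 *Yfp*- cells (ratio 0.742, 0.599 to 0.926), with median depths of 10682 and 5153 UMIs. Without the richest cell of each group that ratio was 0.825.

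**Figure D4:**
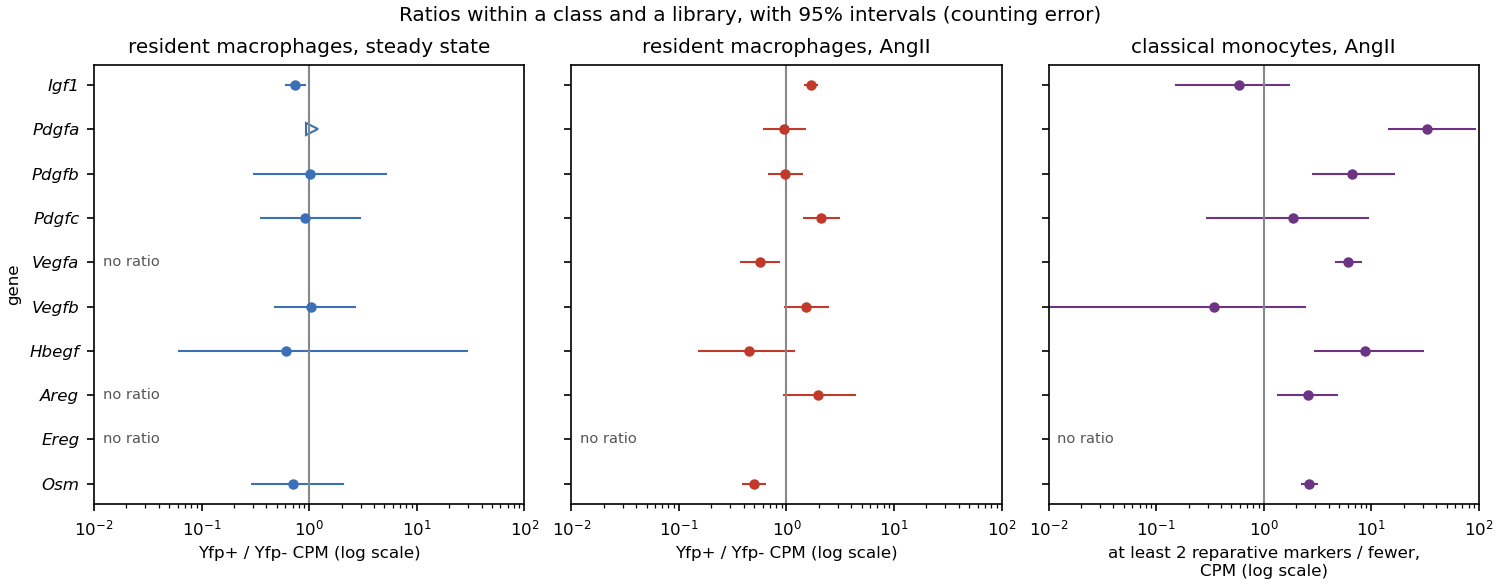
Ratios of levels within a class and a library, on a log axis, with points for ratios and bars for exact 95% counting intervals: *Yfp*+ over *Yfp*- resident macrophages at steady state (left) and on AngII (middle), and AngII classical monocytes with at least 2 reparative macrophage markers over those with fewer (right). The open arrow is a lower bound for a gene with 0 UMIs in *Yfp*- cells, and the *Igf1* point lies left of 1 at steady state and right of 1 on AngII.

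Classical monocytes of the AngII library were not uniform. In 64 of the 523 cells at least 2 reparative macrophage markers (*Arg1*, *Spp1*, *Inhba*, *Mmp12*, *Gpnmb*) had a UMI, a split made after the values had been seen. *Pdgfa* was at 117 CPM in these cells and 3.53 CPM in the other 459 (ratio 33.2, 14.4 to 93.7), so 64 of its 70 UMIs were in them. Few cells made this value, as 16 of the 523 monocytes held a *Pdgfa* UMI and 1 cell held 19 of the 70. *Vegfa* was at 283 and 46.4 CPM (ratio 6.10, 4.62 to 8.10), *Hbegf* at 25.6 and 2.94 CPM (ratio 8.70, 2.96 to 30.9) and *Pdgfb* at 34.7 and 5.29 CPM (ratio 6.56, 2.83 to 16.5). *Osm* was at 418 and 159 CPM (ratio 2.64, 2.20 to 3.16). *Igf1* went the other way at 7.31 and 12.3 CPM, within counting error (0.148 to 1.75). The marked cells had a median of 4622 UMIs against 919, and the part of depth, free RNA or doublets in these ratios was not tested.

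Across the 13 AngII classes of at least 20 cells, the pattern of each gene was set beside those of 7728 others by the correlation of log2(CPM + 10), a description in which the classes share a library and differ in depth. The genes nearest to *Igf1* were *Slc38a6* (r = 0.95), *Timp2* (0.92) and *Gna12* (0.92), and those nearest to *Vegfa* were *Fth1* (0.91), the ferritin heavy chain gene, *Cxcl14* (0.90) and *Hif1a* (0.89), which encodes the oxygen-regulated transcription factor HIF-1 alpha. *Osm* was nearest to *Thbs1* (0.96), which encodes thrombospondin 1, *Alas1* (0.95) and *Cib2* (0.94). *Pdgfc* was nearest to *Scamp5* (0.93), *Itsn1* (0.92) and the endothelin receptor gene *Ednrb* (0.91). *Pdgfa* was nearest to *Mir6236* (0.90), *Tmem205* (0.89) and *Cemip2* (0.88), and *Pdgfb* to *Emc8* (0.89), *Ptov1* (0.89) and *Akr1a1* (0.88). *Areg* was nearest to *Nans* (0.88), *Hadhb* (0.83) and *Pelp1* (0.83), and *Vegfb* to *Arhgap21* (0.83), *Rpap3* (0.83) and *Frmd4a* (0.82). The ILC2, highest in *Areg*, had 13 cells on AngII and were not among these classes.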

How the data were processed

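CD45+ adventitial cells of *Rank*-Cre *Rosa26*-eYFP mice were profiled with 10x 3' v3.1 chemistry. The pool of 3 steady-state mice and that of 2 AngII mice each gave 1 library. Per the methods and the processing notes, the authors mapped reads with Cell Ranger 3.1.0 to GRCm38.p6 with GENCODE annotation and the eYFP sequence, and deposited UMI counts per gene and called barcode without normalization (346 and 4419 barcodes). The growth factors, gene lists and markers were chosen with earlier results of these data known.

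Following the methods, barcodes outside 300 to 6500 genes or above 5% mitochondrial UMIs were dropped. A cell was put in the class with the highest marker score, the sum of ln(1 + UMIs per 10000) weighted by the log inverse share of cells with the marker and divided by the square root of the number of markers. At least 2 markers had to be detected, among 135 markers of 18 classes, and macrophages were then split 3 ways by the same score. Cells whose second score was over 80% of the best were left out as mixed (3.92% and 12.1%), and no doublet caller was run. On AngII 257 kept cells lay just inside that limit and 256 just outside, against 10 and 7 at steady state, and 142 AngII cells reached no class. This scoring was settled after the data had been seen. In the AngII library 1910 cells (45.5%) held under 1000 UMIs and were left out by thinning, against 3 at steady state.

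Levels are summed UMIs as CPM with exact Poisson intervals, and shares carry Clopper-Pearson intervals. Ratios carry exact conditional intervals, and a count of 0 was replaced by 3 UMIs per class to give a bound. Counts of genes past 2-fold used genes with at least 20 UMIs over both libraries. No p-value was computed. Named were the 10 growth factors, up to 4 genes with the most UMIs per pathway list, and the 3 genes most alike per growth factor with at least 200 UMIs on AngII. *Igf2*, *Pdgfra* and *Osmr*, named at 0 UMIs, were added after their values were seen. Tools were pandas 2.3.3, SciPy 1.17.1, NumPy 2.4.6 and, for plots, Matplotlib 3.10.9, under Python 3.11.15, and coordinates are from GENCODE M21 on GRCm38, 1-based. The steps were tested on simulated cells drawn from the class profiles. Results were recomputed over all barcodes, deeper cells, a stricter gate, thinned cells, other thresholds, per-cell means, without the richest cells, with B-cell levels subtracted and, added after seeing the data, with mixed cells in their better class.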

Additional observations from a re-analysis of the deposited data

Results flagged for a closer look

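*Pdgfa* differed between the libraries in opposite directions in separate classes. The ratio of AngII to steady state was 8.66 in classical monocytes, from 70 UMIs against 1, and 0.254 (0.0902 to 0.816) in type-1 conventional dendritic cells, from 13 UMIs against 6. Of the 70 monocyte UMIs, 64 were in the group of 64 cells with at least 2 reparative macrophage markers, a split made after the values had been seen. These UMIs were not spread evenly, as 16 of all 523 monocytes held a *Pdgfa* UMI and 1 cell held 19. The other 459 cells were at 3.53 CPM beside 3.59 CPM at steady state. Both intervals excluded 1, but that of the monocytes is wide and rests on 1 steady-state UMI. Each class is 1 library per condition, and the difference between the classes was not tested.

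*Igf1* differed in opposite directions between *Yfp*+ and *Yfp*- resident macrophages of the libraries, with a ratio of 0.742 (0.599 to 0.926) at steady state and 1.68 (1.44 to 1.97) on AngII. With 2 reporter UMIs for a *Yfp*+ call the ratios were 0.805 and 1.39. After thinning, the intervals were 0.288 to 0.850 and 1.28 to 3.13 with 1 reporter UMI, and 0.331 to 0.953 and 1.42 to 3.49 with 2. Without the richest cell of each group the ratios with 1 reporter UMI were 0.825 and 1.66. The depth of the 2 groups differed in both libraries, and the difference between the libraries was not tested.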

How the results depend on the processing

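No paired analysis was possible because each condition is 1 library, so the groups share fewer than 2 replicate numbers. Of 449 values recomputed under the alternatives for 80 results, 367 stayed within the counting interval or side of the 2-fold limit, 81 moved and 1 turned direction. Thinning to 1000 UMIs moved 32 of 55 values, against 7 of 29 with the level in B cells subtracted, 7 of 12 with 1.5-fold in place of 2-fold and 10 of 29 without the richest cell. In resident macrophages the *Vegfa* bound fell to at least 1.15-fold after thinning, the *Osm* ratio became 4.16 without the richest cell of each library and 4.07 after thinning, and 1 gene instead of 2 was at least 2-fold lower among cells with at least 1000 genes. The *Hbegf* ratio in classical monocytes, 0.470 with an interval that held 1, became 1.53 without the richest cell of each library. The *Igf1* ratio in resident macrophages lay between 0.330 and 0.398 under every alternative run. Putting mixed cells into their better class was chosen after the data were seen. The cause of these shifts was not tested.

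Depth limits most values. Classes other than resident macrophages, T and B cells held at most 15 steady-state cells, so a missing gene there could stand at up to 10.8 CPM in classical monocytes and 23.6 CPM in nonclassical monocytes. Thinning left 14 *Vegfa* UMIs in resident macrophages.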

Other observations

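In the AngII library, cells that scored alike for a pair of classes (507) had 49.6 CPM of *Igf1*, 64.2 CPM of *Vegfa* and 114 CPM of *Osm*. Each lay between the levels of resident macrophages and classical monocytes. The genes that led these cells included *Retnla* and *Ear2*, markers of type-2 macrophages, and *Mmp12*, a reparative marker. Also among them were the interferon-stimulated genes *Isg15*, *Ifit1bl1*, *Rsad2* and *Isg20*, for which the gate had no class. Whether these cells were doublets or held cells responding to interferon was not tested. Macrophages with general markers but no subclass (291 cells, median 687 UMIs) had 53.9 CPM of *Vegfa* (29.5 to 90.4) and 84.7 CPM of *Osm* (53.1 to 128).

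Over the macrophage classes other than resident of the AngII library, *Igf1* was at 104 CPM in 72 *Yfp*+ cells and 53.4 CPM in 612 *Yfp*- cells (ratio 1.96, 1.41 to 2.71), and the ratio after thinning was 4.72 (1.72 to 13.1). With 2 reporter UMIs for the call the ratios were 1.66 (1.18 to 2.32) and, after thinning, 2.70 (0.652 to 8.47), an interval that held 1. *Osm* was at 74.8 and 116 CPM (ratio 0.646, 0.466 to 0.882), with a ratio of 1.16 (0.384 to 2.94) after thinning. The *Yfp*+ cells were again deeper, with a median of 1900.5 UMIs against 796.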
